A study of Homo sapiens with 3 samples.

Results

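The replication-dependent histone genes of the human genome lie in a few tight clusters, and the calls of short nascent strand sequencing (SNS-seq) that fall in them were described here. The clusters were taken by position alone, as 3 intervals of chromosome 6 and 1 interval of chromosome 1 in the hg19 genome build. They were the large cluster (26.0 to 26.3 Mb of chromosome 6), the middle cluster (27.09 to 27.3 Mb), the distal cluster (27.77 to 27.88 Mb) and the chromosome 1 cluster (149.78 to 149.88 Mb), 720 kb in all. A call was a member when its midpoint lay in a cluster. Over the 3 replicates, 95 of 247794 diffuse regions called by EPIC2 and 191 of 442952 narrow summits called by MACS2 were members. The comparison was with the first stretch (26.3 to 27.09 Mb) and the second stretch (27.3 to 27.77 Mb) that separate the chromosome 6 clusters, 1260 kb that held 126 regions and 214 summits.

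All 3 libraries came from the colorectal cancer cell line HCT116, untreated and grown as 1 group, so that the design offers comparisons between places in the genome and none between conditions. Short nascent strands are the first stretches of DNA made at a replication origin. They were purified with λ-exonuclease, which digests DNA that lacks an RNA primer at its 5′ end, converted to double strands and sequenced. Replicate 2 had the shortest lists genome-wide, with 44482 EPIC2 regions and 62924 summits, against 124492 and 218034 in replicate 1 and 78820 and 161994 in replicate 3.

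Core histones package DNA into nucleosomes, with H2A, H2B, H3 and H4 forming the particle around which the DNA is wound and H1 binding the linker between particles. A cell must make new histones in step with its DNA, and the genes of these clusters are transcribed mainly in S phase, when the DNA is copied. Their short messages lack introns and end in a stem-loop in place of a poly(A) tail. The large number of near-identical gene copies, many of them H2A and H2B pairs read in opposite directions from 1 shared promoter, is typical of these loci. No table of genes in hg19 coordinates was used here, so that genes are named below by their order in RefSeq (GRCh38.p14) and no call is assigned to a gene.

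In that order, 64 protein-coding histone genes formed the 4 groups, made up of 6 of H1, 15 of H2A, 16 of H2B, 13 of H3 and 14 of H4. The large group held 32 of them and included 5 of the H1 genes. The middle group had 5 genes, the distal group 16 and the chromosome 1 group 11. HFE, a regulator of iron uptake, was the only other protein-coding gene inside the large group. The genes between the large and the middle group included the butyrophilins BTN3A2, BTN2A2, BTN3A1, BTN3A3, BTN2A1 and BTN1A1, which are membrane proteins of the immunoglobulin family, and the chromatin protein gene HMGN4. Those between the middle and the distal group included the serine protease gene PRSS16 and the zinc finger genes ZNF391 and ZNF184. The order does not tell whether a gene between groups lies in a cluster interval or in a stretch. Nor does it tell how much of an interval the histone genes fill, so that calls in a cluster need not lie at histone genes.

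Promoter sequence was matched for 59 of the 64 genes, as the 250 bases upstream of the first start listed in RefSeq (GRCh38.p14). The TATA box TATAAA, read on both strands, stood in 39 of the 59 promoters (66.1%), against 11.1% of 27305 promoters of the same length. CCAAT, also read on both strands, was in 50 of 59 (84.7%), against 33.0% of all promoters. Every promoter of H1, H2A, H2B and H3 held it, and 3 of 12 promoters of H4 did. The octamer ATTTGCAT, the binding sequence of OCT1, was found in 24 of 59 (40.7%) against 1.66% of all promoters, with 13 of 16 in H2B, 10 of 14 in H2A, 1 of 11 in H3 and none of 6 in H1 or 12 in H4. Of the 59 promoters, 19 overlap that of a histone neighbour, and a motif in the shared bases is counted for each, so that the counts are not independent. The 1 promoter of H3 with the octamer, that of H3C4, overlaps those of H2AC7 and H2BC7. The 59 promoters were poor in G and C, with a median of 42.4% against 58.0% over all promoters. The upstream sequence of H2BC11, in the middle group, is shown because it holds all 3 motifs and overlaps the promoter of its divergent neighbour H2AC11. It is written 5′ to 3′ with the motifs of either strand in capitals (CCAAT appears as ATTGG on the other strand).

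H2BC11: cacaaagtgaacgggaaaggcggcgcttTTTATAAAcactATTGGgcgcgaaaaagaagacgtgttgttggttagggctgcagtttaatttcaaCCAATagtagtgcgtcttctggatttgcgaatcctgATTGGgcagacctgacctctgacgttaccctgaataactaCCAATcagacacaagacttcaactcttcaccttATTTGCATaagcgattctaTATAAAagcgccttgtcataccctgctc

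Copies of one gene within a cluster share promoter sequence too. Stretches of 50 identical bases, on either strand, were sought among the 59 histone promoters only. Such a stretch was shared with a histone promoter elsewhere by 12 of the 59. They were 6 of the 11 in the chromosome 1 group and 6 of the 14 in the distal group. No promoter of the large or the middle group shared one with another of the 59. In the distal group, H2BC13 overlaps H2AC13 and H2AC14 overlaps H2BC14, so that a shared stretch there is counted for both. On chromosome 1, H4C14 and H4C15 were identical over all 250 bases, and H3C14 and H3C15 had 197 of 201 windows of 50 bases in common. H2AC18 and H2AC19 shared 200. In the distal group, H4C11 and H4C12 differed at 5 of 250 positions. These sequences are shown because a short read from such a copy can match more than 1 place. The capitals mark the same motifs, and H4C14 held none of them.

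H4C14, identical to H4C15: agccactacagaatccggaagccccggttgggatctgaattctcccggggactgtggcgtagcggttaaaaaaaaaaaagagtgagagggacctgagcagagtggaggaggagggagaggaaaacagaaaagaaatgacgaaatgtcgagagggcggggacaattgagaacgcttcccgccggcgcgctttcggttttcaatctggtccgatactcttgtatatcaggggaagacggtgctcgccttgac
H3C14: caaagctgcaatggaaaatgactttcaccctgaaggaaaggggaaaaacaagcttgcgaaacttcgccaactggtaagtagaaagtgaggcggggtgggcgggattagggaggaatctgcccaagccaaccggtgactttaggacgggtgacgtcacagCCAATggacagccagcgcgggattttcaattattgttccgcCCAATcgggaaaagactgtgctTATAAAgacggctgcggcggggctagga
H4C11: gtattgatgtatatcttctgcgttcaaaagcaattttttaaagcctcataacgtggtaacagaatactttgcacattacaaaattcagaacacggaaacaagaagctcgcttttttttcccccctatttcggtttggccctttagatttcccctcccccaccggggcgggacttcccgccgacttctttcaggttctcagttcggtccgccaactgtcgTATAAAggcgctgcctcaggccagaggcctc
H4C12: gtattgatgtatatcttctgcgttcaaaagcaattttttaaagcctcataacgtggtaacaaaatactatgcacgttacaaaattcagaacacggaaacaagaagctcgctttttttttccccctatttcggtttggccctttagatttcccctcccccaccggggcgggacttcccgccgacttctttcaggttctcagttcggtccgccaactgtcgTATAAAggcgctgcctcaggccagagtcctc

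The calls were spread unevenly over the 4 clusters, as the map of the calls shows. In the large cluster the EPIC2 regions numbered 22, 3 and 20 in replicates 1, 2 and 3. MACS2 placed 41, 6 and 39 summits there. The middle cluster had 16, 4 and 14 regions with 29, 8 and 33 summits. The distal cluster had 5 and 4 regions in replicates 1 and 3 and none in replicate 2, and its summits numbered 9, 3 and 14. The chromosome 1 cluster had 3, 2 and 2 regions with 4, 2 and 3 summits, and was the only cluster in which the replicate with the shortest lists had as many regions as another replicate.

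**Figure D1:**
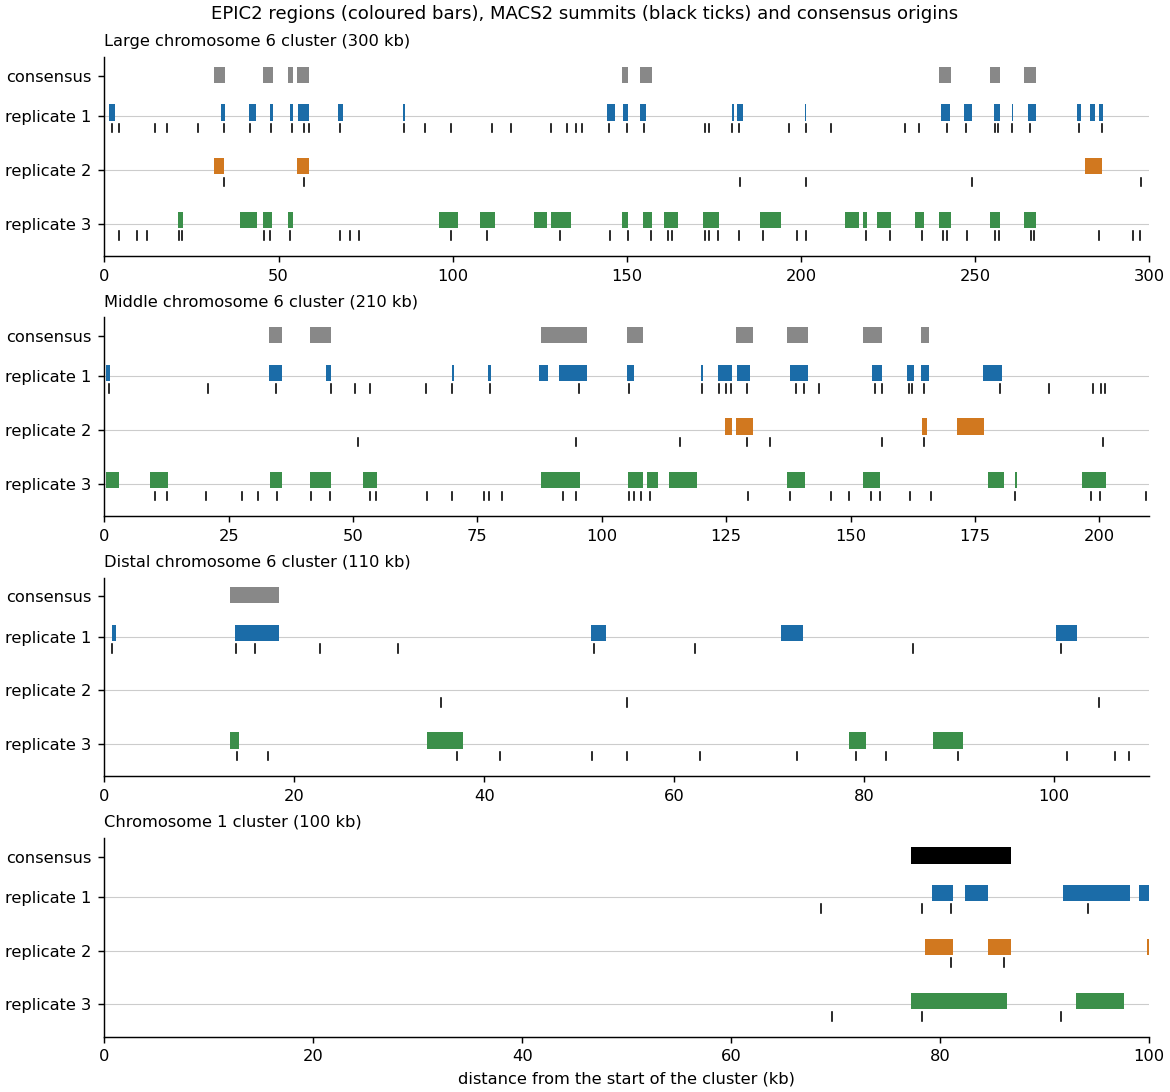
EPIC2 regions (coloured bars) and MACS2 summits (black ticks beneath) of each replicate in the 4 histone gene clusters, against the distance from the start of the cluster in kb. The upper row gives the consensus origins, grey where found in 2 replicates and black in all 3. Calls run along the whole of the chromosome 6 clusters, whereas the first 68.6 kb of the chromosome 1 cluster hold none.

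Per 100 kb, the large cluster had 7.33, 1.0 and 6.67 EPIC2 regions in replicates 1, 2 and 3 (5.0 ± 3.48, mean ± SD, n = 3), and the middle cluster 7.62, 1.91 and 6.67 (5.40 ± 3.06). The distal cluster followed with 2.73 ± 2.41 and the chromosome 1 cluster with 2.33 ± 0.577. The replicate order was the same in the large and the middle cluster, replicate 1 above replicate 3 above replicate 2, and the SDs include the difference in list length between replicates. Within replicates, the large cluster was above the distal cluster in 3 of 3, the middle cluster was above the large in replicates 1 and 2 and equal to it in replicate 3, and the distal cluster was above the chromosome 1 cluster in replicates 1 and 3 and below it in replicate 2. These differences were not tested. Summits gave 11.1 ± 6.40 per 100 kb in the middle cluster, 9.56 ± 6.55 in the large, 7.88 ± 5.01 in the distal and 3.0 ± 1.0 in the chromosome 1 cluster. In replicates 1 and 3 the chromosome 1 cluster was the lowest of the 4 by summits, at 4.0 and 3.0 per 100 kb, while the lowest of the chromosome 6 clusters there were at 8.18 and 12.7.

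The share of bases inside EPIC2 regions ordered the clusters differently. It was 15.4%, 5.33% and 23.7% in the middle cluster and 11%, 3.67% and 23.1% in the large cluster. The chromosome 1 cluster had 11.6%, 5.0% and 13.8%, above the large cluster in replicates 1 and 2. The median width of its few regions was 2200, 2400 and 6900 bases, against 1600, 3400 and 3500 in the large cluster, so that they were wider in replicates 1 and 3 and narrower in replicate 2. The widest region of any cluster was in replicate 3 at chr1:149857201-149866400, 9200 bases long. In the distal cluster 10.2%, 0% and 8.91% of bases were covered.

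The histone clusters together were denser than the stretches between them in some measures and replicates only. EPIC2 regions numbered 6.39, 1.25 and 5.56 per 100 kb in the clusters and 5.0, 1.59 and 3.41 in the stretches. The ratio was 1.28, 0.788 and 1.63 (1.23 ± 0.422), above 1 in 2 of 3 replicates (p = 0.5, exact two-sided sign-flip permutation test over replicates on log ratios). With 3 replicates this test cannot go below 0.25, so that no comparison here could reach 0.05. Summits numbered 11.5, 2.64 and 12.4 per 100 kb in the clusters against 8.02, 2.14 and 6.83, a ratio of 1.44, 1.23 and 1.81 (1.49 ± 0.294), above 1 in 3 of 3 replicates (exact p = 0.25). The covered share was 12.3%, 3.78% and 19.8% against 8.30%, 3.65% and 11.3%, with ratios of 1.48, 1.04 and 1.76 (1.42 ± 0.365, exact p = 0.25). Regions holding a summit of their own replicate, called common regions below, had ratios of 1.47, 0.875 and 1.81 (1.38 ± 0.471, exact p = 0.5). Without the chromosome 1 cluster the covered share ratios were 1.49, 0.981 and 1.85 (exact p = 0.5), above 1 in 2 of 3 replicates. EPIC2 regions then had ratios of 1.39, 0.711 and 1.80, and common regions 1.63, 0.677 and 2.03. Those of summits were 1.59, 1.28 and 2.03, still above 1 in 3 of 3 replicates.

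**Figure D2:**
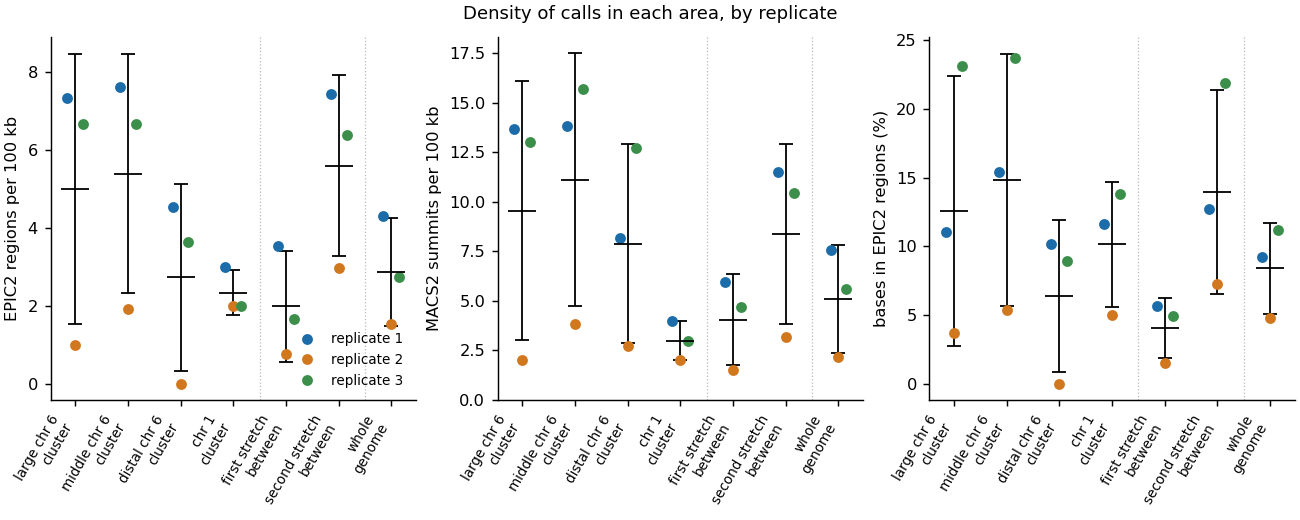
EPIC2 regions per 100 kb, MACS2 summits per 100 kb and the percentage of bases in EPIC2 regions, for the 4 clusters, the 2 stretches between and the whole genome. Points are replicates, horizontal bars the mean and whiskers the SD (n = 3). The first stretch lies at 1.98 ± 1.42 regions per 100 kb and the second at 5.60 ± 2.33, with the large and the middle cluster near the second.

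The stretches were unlike each other, and the result turned on which of them was used. The first stretch had 3.54, 0.760 and 1.65 EPIC2 regions per 100 kb and the second 7.45, 2.98 and 6.38, a ratio of 3.30 ± 1.04 (above 1 in 3 of 3 replicates, exact p = 0.25). A run of 346 kb within the 790 kb of the first stretch held no EPIC2 region in any replicate. The ratios to this stretch include that run, and densities outside it were not calculated. Against the first stretch, the clusters had 1.80, 1.65 and 3.38 times the density of EPIC2 regions and 1.94, 1.74 and 2.64 times that of summits, above 1 in every replicate (exact p = 0.25 for each). Against the second stretch, the regions were at 0.858, 0.420 and 0.870 times its density (0.716 ± 0.257), below 1 in 3 of 3 replicates (exact p = 0.25), and the summits at 1.00, 0.827 and 1.19 times (1.01 ± 0.179, exact p = 1.0). The second stretch was also above the whole genome in all replicates, at 1.73, 1.93 and 2.34 times its density of EPIC2 regions, and the first stretch below it, at 0.821, 0.493 and 0.602 times.

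Against the whole genome, which had 4.32, 1.54 and 2.73 EPIC2 regions per 100 kb, the clusters were at 1.48, 0.811 and 2.03 times (1.44 ± 0.612, exact p = 0.5). For summits the ratio was 1.53, 1.21 and 2.20 (1.65 ± 0.507, exact p = 0.25). Chromosome 6 as a whole was below the genome, at 0.767 ± 0.0504 times its density of regions. The middle cluster was above the genome in every replicate both by regions, at 1.77, 1.24 and 2.44 times, and by summits, at 1.83, 1.75 and 2.80 times. The large cluster was above it in replicates 1 and 3 and below it in replicate 2, at 1.70, 0.649 and 2.44 times by regions. The chromosome 1 cluster was below the genome by summits in every replicate, at 0.529, 0.917 and 0.534 times (exact p = 0.25), and above it by covered share, at 1.26, 1.05 and 1.23 times (exact p = 0.25). Both values are over its full 100 kb, of which the first 68.6 kb held no call in any replicate.

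The same was read from windows of 10 kb, of which the clusters hold 72. An EPIC2 region of replicate 1 touched 38 of them (52.8%), where 34.0% of the 288500 windows of the genome did. Replicate 3 touched 45 (62.5%), against 27.2%. Replicate 2 touched 10 (13.9%), less than its background of 16.5%. A summit stood in 54 windows (75.0%, background 50.3%) in replicate 1, in 18 (25%, background 19.5%) in replicate 2 and in 53 (73.6%, background 42.1%) in replicate 3. Windows touched by EPIC2 regions of all 3 replicates numbered 7 (9.72%), a share near the background of 9.67%, and 3 of the 7 were in the chromosome 1 cluster. The excess over the background was thus found in 2 replicates for EPIC2 regions, and in all 3 for summits. It was not particular to the clusters. In the second stretch EPIC2 regions touched 66.0%, 31.9% and 61.7% of windows in replicates 1, 2 and 3, and summits stood in 74.5%, 27.7% and 76.6%. The first stretch was lower, at 29.1%, 7.59% and 16.5% for regions and 44.3%, 15.2% and 38.0% for summits.

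**Figure D3:**
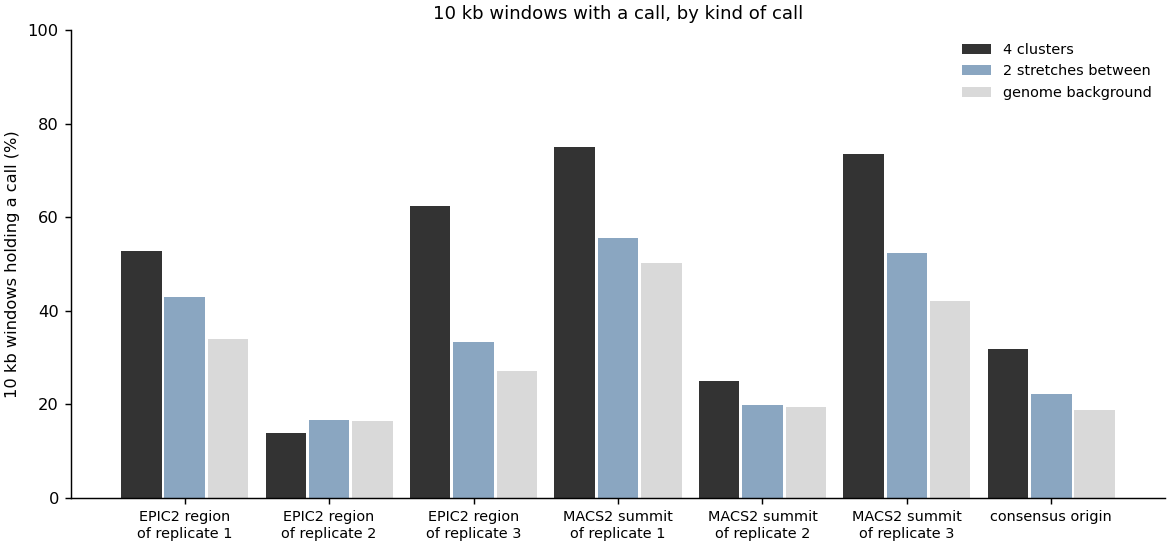
Percentage of 10 kb windows holding each kind of call in the 4 clusters (72 windows), the 2 stretches between (126 windows) and the genome background (288500 windows). With the 2 stretches pooled, the clusters stand above both others except for the EPIC2 regions of replicate 2, where they are at 13.9% against 16.5% in the background.

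None of the 62 windows of the chromosome 6 clusters was without any call of any replicate, while 33.1% of the windows of the genome had none. In the first stretch 33 of 79 windows (41.8%) had no call, and in the second 2 of 47 (4.26%). The chromosome 1 cluster was the exception among the clusters, with 6 of its 10 windows empty. Its first 68.6 kb, chr1:149780001-149848557, held no call of either caller in any replicate, and its first 77.2 kb held no EPIC2 region. The longest stretches without a call were 12.5 kb in the large cluster (chr6:26073253-26085800), 9.88 kb in the middle (chr6:27144801-27154679) and 12 kb in the distal (chr6:27771201-27783200). The next in length were 11.8 and 8.55 kb in the large, 8.03 and 8.0 kb in the middle, 9.8 and 9.57 kb in the distal and 7.57 and 4.78 kb in the chromosome 1 cluster. In the chromosome 1 group, 6 of 11 promoters share sequence with a copy, at 197 to 201 of 201 windows of 50 bases. The distal group, whose cluster had no empty window, has 6 of 14 such promoters, some overlapping each other, at 44 or 89 of 201 windows. The copies of these groups are thus unlike in extent, and the part of read mapping in the empty stretch was not tested. The first stretch held a longer run, 346 kb with no EPIC2 region (chr6:26648201-26994000), in which 5, 2 and 4 summits lay.

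**Figure D4:**
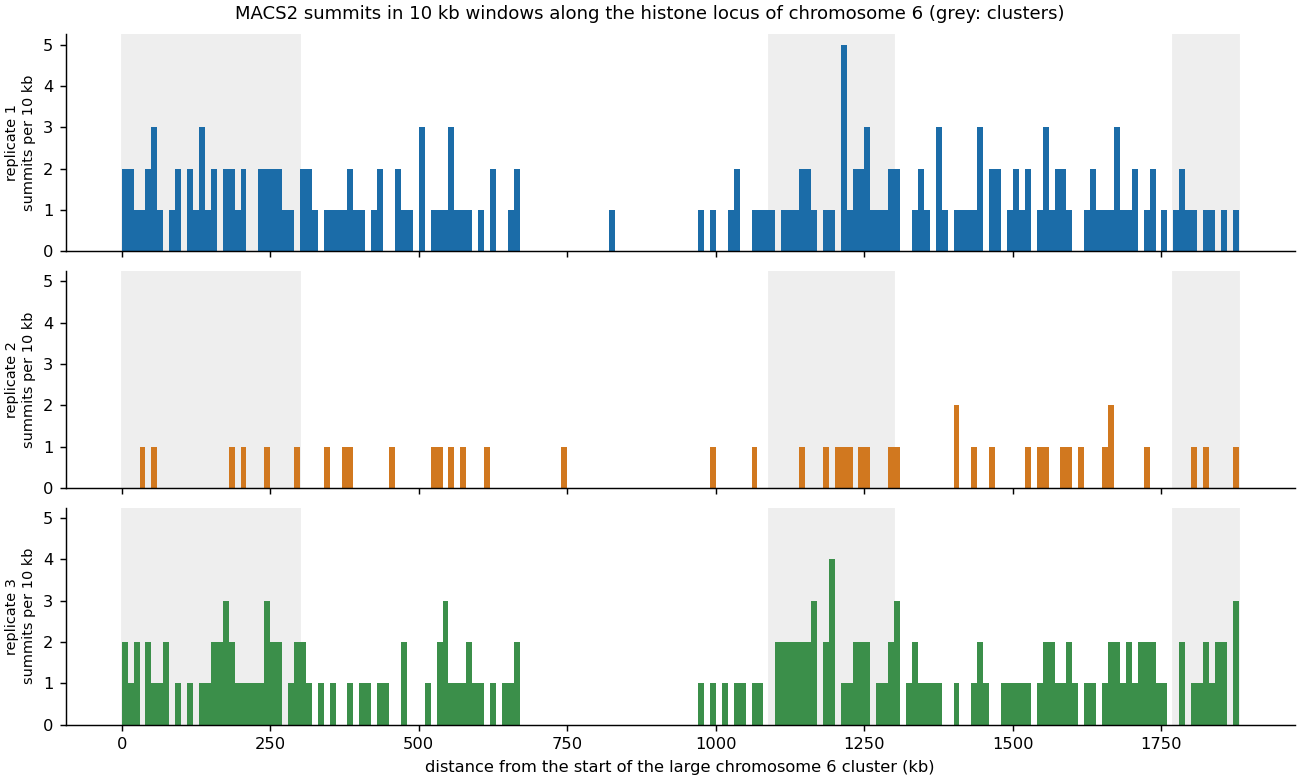
MACS2 summits per 10 kb window along chromosome 6 in each replicate, against the distance in kb from the start of the large cluster, with the 3 clusters shaded grey. The clusters and the second stretch carry summits in most of their windows in replicates 1 and 3, and the first stretch has a run with few or none before the middle cluster.

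EPIC2 regions of the clusters held a summit of their own replicate more often than regions of the genome did. They did so in 42 of 46 regions in replicate 1 (91.3%, genome 81.7%), 6 of 9 in replicate 2 (66.7%, genome 56.8%) and 33 of 40 in replicate 3 (82.5%, genome 71.7%). The difference was 9.64, 9.83 and 10.8 percentage points (10.1 ± 0.622), the same way in 3 of 3 replicates (exact p = 0.25), although without the chromosome 1 cluster the mean was 8.06 with an SD of 6.74. The chromosome 6 clusters alone were at 93.0%, 57.1% and 84.2%, and chromosome 6 as a whole at 85.2%, 61.9% and 74.4%. In replicate 2 these clusters were thus close to the genome and below their chromosome. The difference for all clusters rests on 9 regions in replicate 2. Against the stretches between, it was 11.9, 6.67 and 8.08 points (exact p = 0.25), but against the first stretch alone it was 12.7, 0 and -2.12 points (3.54 ± 8.03, exact p = 1.0) and against the second 11.3, 9.52 and 12.5 points (exact p = 0.25). Common regions with more than 1 summit numbered 6 of 42 (14.3%), 0 of 6 and 14 of 33 (42.4%), where the genome had 19.7%, 9.22% and 21.6%. The reverse share, of summits that lay in an EPIC2 region, was 59.0%, 31.6% and 55.1% against 57.5%, 44.2% and 43.7% in the genome, above it in replicates 1 and 3 and below it in replicate 2.

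The scores of the summits in the clusters lay near the middle of those of their replicate. The score is −log10 of the q-value, and its median was 4.95, 2.89 and 3.92 in the clusters and 4.81, 3.39 and 3.92 genome-wide. As a percentile within each replicate the median summit of the clusters stood at 51.0, 42.4 and 48.5, and that of the stretches at 52.8, 51.1 and 41.7. The difference was -1.74, -8.78 and 6.83 points (-1.23 ± 7.82, exact p = 0.75), less than its own spread and without one direction. The highest summit of the clusters was at chr6:27244967 in replicate 1, in the middle cluster, with a score of 30.6. The highest of replicate 2 was at chr6:27254781 in the same cluster, with 19.8, and that of replicate 3 at chr6:26053366 in the large cluster, with 13.0. Genome-wide, the highest scores reached 1305, 2272 and 3497.

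Consensus origins were built as common regions merged over replicates and present in at least 2 of them. The clusters held 19, of which 9 were in the large cluster, 8 in the middle and 1 each in the distal and the chromosome 1 cluster. That was 2.64 per 100 kb, against 1.59 in the stretches (20 origins, 9 in the first and 11 in the second) and 1.46 in the genome. They touched 23 of 72 windows (31.9%), where 18.7% of the windows of the genome and 22.2% of those of the stretches were touched, with 13.9% in the first stretch and 36.2% in the second. The middle cluster had the highest share of touched windows, 10 of 21 (47.6%). Replicate 1 took part in all 19, replicate 3 in 15 (78.9%) and replicate 2 in 5 (26.3%), where the shares over all origins of the genome were 98.2%, 76.9% and 44.0%. Built without replicate 1 the count was 1, without replicate 3 it was 5 and without replicate 2 it was 15.

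Only 1 consensus origin of the clusters was found in all 3 replicates, at chr1:149857201-149866800. That was 5.26% of the 19, against 15.2% of the 1860 origins of chromosome 6 and 19.1% of the 42075 of the genome. The origin was 9600 bases long, the widest consensus origin of the clusters, and began 77.2 kb into the chromosome 1 cluster, at the end of its run without regions. Its top summits scored 6.29, 3.42 and 11.4 in replicates 1, 2 and 3, at percentiles 64.9, 50.5 and 97.6, and so were unequal in rank. They lay at chr1:149861051, chr1:149866118 and chr1:149858310, kilobases apart from each other. A second summit of replicate 2, at chr1:149861046, lay 5 bases from the top summit of replicate 1, and a second summit of replicate 1, at chr1:149858259, lay 51 bases from that of replicate 3. The second stretch had 2 such origins and the first none.

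In the large cluster, the consensus origin with the highest mean percentile of its top summits (85.0) was chr6:26055401-26058800, found in replicates 1 and 2. Its top summits scored 8.81 and 12.3 and lay 42 bases apart, at chr6:26057329 and chr6:26057371. Replicate 3 had neither a summit nor a common region inside it. The other origin of this cluster that included replicate 2, chr6:26031601-26034600, had summits at chr6:26034346 and chr6:26034312, 34 bases apart, with scores of 16.7 and 4.13. The remaining 7 of the large cluster joined replicates 1 and 3.

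In the middle cluster, chr6:27177801-27187000 ranked first, with a mean percentile of 94.4. It was 9200 bases long and was found in replicates 1 and 3, with top summits of 13.2 at chr6:27185332 and 11.4 at chr6:27182114, more than 3 kb apart. Replicate 2 had 1 summit inside it, of score 1.56 at chr6:27184819, and no region. The origin chr6:27254201-27255800, the next in rank at 92.3, joined replicates 1 and 2 with summits 48 bases apart (scores 12 and 19.8). The summit of score 30.6 was in chr6:27242601-27246400, where the top summit of replicate 3 scored 2.43, at percentile 16.2.

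The distal cluster had 1 consensus origin, chr6:27783201-27788400, found in replicates 1 and 3. Its top summits scored 5.5 and 6.04 and lay 84 bases apart, at chr6:27783903 and chr6:27783987. No summit of replicate 2 fell in it. The highest summits of this cluster lay elsewhere, at chr6:27821522 in replicate 1 (score 20.6) and chr6:27821313 in replicate 3 (10.7), and only the first was inside an EPIC2 region. Replicate 2 had 3 summits in the distal cluster, of which the highest scored 2.89, at percentile 42.4, and lay 4 bases from a summit of replicate 3 of score 4.57.

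Common regions of replicate 1 overlapped a common region of another replicate in 19 of 42 cases (45.2%), those of replicate 2 in 6 of 6 and those of replicate 3 in 15 of 33 (45.5%). Genome-wide, the shares were 48.4%, 79.0% and 60.9%. The difference from the genome was -3.18, 21.0 and -15.4 points (0.803 ± 18.5, exact p = 1.0) and had no common direction. By position, 11 of the 83 summits of replicate 1 in the clusters lay within 100 bases of a summit of replicate 3 (13.3%, genome 7.82%). Within 100 bases of one of replicate 2 lay 5 (6.02%, genome 10.8%). Read the other way, the shares were 12.4% of the summits of replicate 3 (genome 10.5%) and 26.3% of those of replicate 2 (genome 37.3%). These shares were not adjusted for the density of summits. The closest pair was chr6:26182365 and chr6:26182366 in the large cluster, 1 base apart, with scores of 3.37 and 3.83 in replicates 1 and 3. Summits of all 3 replicates came within 100 bases of each other at 1 place, chr6:26201441, chr6:26201397 and chr6:26201484 in replicates 1, 2 and 3, with scores of 13.2, 9.40 and 1.59. The place was in no consensus origin.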

How the data were processed

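SNS-seq of 3 untreated HCT116 libraries was analysed from the call lists the authors deposited, 2 for each replicate. Per the labels and the study's methods, reads were aligned to hg19 with Bowtie2 (2.3.4.2), duplicates were removed with Picard (2.18.17), and calls were made per replicate with MACS2 (2.1.0.20151222) at a q-value of 0.1 and with EPIC2 at the same false discovery rate. The sources used here do not give how reads with several places of origin were treated, or whether a control library was used. The deposited MACS2 value is −log10 of the q-value. The deposited EPIC2 score is of unstated kind and was used as a rank within a replicate only. Read depth is unknown. The study's methods call the replicates triplicate experiments and the labels do not tie them to cultures, so p-values measure only the spread between these libraries.

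EPIC2 starts lie on a grid of 200 bases, and the deposited end was taken as the last base. Regions were placed by midpoint and positions printed from 1. Densities were compared per replicate with an exact sign-flip permutation test, and the background was every 10 kb window in the megabases that hold a call (2885 Mb). Interval code was tested on simulated data. Named origins were those with all 3 replicates and the first by mean summit percentile in each cluster. Others are named for their position in a cluster or their summits, after their values were seen. Members and lists were chosen with earlier results of these data known. The alternatives were the replicate set, stringency, list length, the stretch compared, overlap and window size. Promoters came from RefSeq (GRCh38.p14), with no coordinates carried between builds. Python 3.11.15, numpy 2.4.6, pandas 2.3.3 and matplotlib 3.10.9 were used.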

Additional observations from a re-analysis of the deposited data

How the results depend on the processing

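Over the 71 recalculations, 42 kept within the spread or the allowed range of the main value, 23 moved beyond it and 6 reversed. Against the first stretch alone the ratios were 2.27 for EPIC2 regions, 2.1 for summits, 2.89 for the covered share and 2.34 for common regions, and the summit percentile difference turned to 6.66. Against the second stretch alone they were 0.716, 1.01, 0.797 and 0.832, so that 3 of the 4 reversed, and the percentile difference was -9.21. With equal numbers of calls per replicate the ratios rose to 1.76 for regions, 2.26 for the covered share and 1.91 for common regions, while consensus origins fell to 6 and touched windows to 13.9%. The percentile difference was 5.36 with the EPIC2 score.

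Leaving out 1 replicate gave ratios of 1.03 to 1.45 for EPIC2 regions, 1.33 to 1.62 for summits, 1.26 to 1.62 for the covered share and 1.17 to 1.64 for common regions. Consensus origins ranged from 1 without replicate 1, over 5 without replicate 3, to 15 without replicate 2, and touched windows from 2.78% to 26.4%. The percentile difference ranged from -5.26 to 2.54, positive only without replicate 2, and the share of common regions found in another replicate from 18.2% to 47.6%. Requiring all 3 replicates left 1 consensus origin and 2.78% of windows, summits widened by 250 bases gave 39, and windows of 20 kb gave 42.9%. The excess of EPIC2 regions with a summit over the genome, whose alternatives were chosen after seeing the data, was 8.42 points (SD 5.0) at a q-value of at most 0.01, 6.77 (SD 5.9) with equal numbers of calls and 8.06 (SD 6.74) without the chromosome 1 cluster, so that its small SD was not kept. The causes were not tested. Places were compared within each replicate. No paired analysis was possible between groups of samples, because all libraries form 1 group. Places without calls cannot be told from places where depth was too low.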
